A study of Mus musculus with 43 samples.

Results

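The 42 genes described here are protein-coding genes that retinoic acid (RA) raised for a short time only in wild-type (WT) mouse germ cell cultures. They were taken from the 46983 genes of the deposited table by 3 conditions on the WT libraries, all on the log2 scale of the deposited values. The mean level at 8 h of RA was at least 6, which 11699 protein-coding genes reached. RA exceeded the solvent DMSO at 8 h by at least 0.5 in the mean and by any amount in each of the 3 WT lines, which left 164 genes. At 24 h the mean difference between RA and DMSO was at most 50% of that at 8 h, which left 42 genes and set apart 122 that were induced at 8 h and were not transient. The members were thus chosen by the WT values at 8 h and 24 h, which are given below as a description, with no test. The question asked of them was whether cultures without Stra8 hold the induction at 24 h.

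The groups were Stra8-knockout (KO) cultures and WT cultures of germ cells, grown from THY1-positive testis cells on STO feeders, a mouse fibroblast line, with GDNF, GFRA1 and FGF2 in serum-free medium. Each genotype was sampled after 4, 8 or 24 h of all-trans RA, after 4, 8 or 24 h of DMSO, and untreated at 0 h. The labels name the replicates KO12, KO20 and KO21 and the replicates WT17, WT23 and WT25, called lines because the 7 conditions of a genotype all use its 3 names, and every group held 1 library of each line. The labels give neither the design of the Stra8 allele nor the age or number of mice, and do not say whether each line came from its own mouse, so the spread between lines may be partly technical. All groups share the feeders, the growth factors and the RNA extraction day, and the protocol gives 0.01% DMSO and 0.01 M RA, without saying whether 0.01 M is that of the stock or of the culture. Because the samples are bulk cultures, fewer cells of a type and less RNA per cell cannot be told apart.

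RA is a vitamin A derivative that binds nuclear receptors of the RAR and RXR families, which sit as pairs on repeats of a short DNA hexamer and switch on nearby genes when RA is bound. Cells meet RA with feedback: enzymes such as the CYP26 hydroxylases and the retinal reductase DHRS3 lower the supply of RA, so that a response can be brief. In the testis, RA starts the differentiation of spermatogonia and, together with Stra8, entry into meiosis. STRA8 is itself induced by RA and acts in the nucleus with its partner MEIOSIN at promoters that often hold the motif CNCCTCAG.

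Promoter sequences are shown for 6 members because they carry the letters discussed next or, for Kirrel2, as a window without them that belongs to one of a pair of neighbouring members described below. They come from RefSeq (GRCm38.p6) and run from 250 bases before to 50 bases after an annotated start, written 5′ to 3′ on the strand of the gene. Capitals mark the RAR hexamer AGGTCA or GGGTCA and the motif CNCCTCAG, each searched on both strands, so that a match on the other strand appears as the reverse complement, such as TGACCT for AGGTCA.
Efcc1, chr6:87730619-87730918, plus strand: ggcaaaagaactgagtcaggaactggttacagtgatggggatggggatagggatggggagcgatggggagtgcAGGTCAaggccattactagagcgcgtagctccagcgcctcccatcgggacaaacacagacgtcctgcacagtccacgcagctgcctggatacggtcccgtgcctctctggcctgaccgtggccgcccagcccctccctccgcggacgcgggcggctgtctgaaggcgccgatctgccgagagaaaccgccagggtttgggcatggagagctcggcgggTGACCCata
Oas3, chr5:120777610-120777909, minus strand: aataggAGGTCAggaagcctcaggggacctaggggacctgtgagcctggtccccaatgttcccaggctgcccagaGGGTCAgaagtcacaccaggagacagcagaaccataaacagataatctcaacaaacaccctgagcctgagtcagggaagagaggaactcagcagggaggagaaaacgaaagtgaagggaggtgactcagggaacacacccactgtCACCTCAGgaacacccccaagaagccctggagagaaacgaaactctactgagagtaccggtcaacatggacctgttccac
Stox1, chr10:62726045-62726344, minus strand: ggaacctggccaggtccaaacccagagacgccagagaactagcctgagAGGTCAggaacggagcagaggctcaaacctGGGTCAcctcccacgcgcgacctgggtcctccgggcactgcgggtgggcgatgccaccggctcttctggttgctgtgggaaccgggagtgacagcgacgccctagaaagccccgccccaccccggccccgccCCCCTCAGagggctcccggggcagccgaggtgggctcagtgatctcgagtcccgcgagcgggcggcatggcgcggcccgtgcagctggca
Hpca, chr4:129121698-129121997, minus strand: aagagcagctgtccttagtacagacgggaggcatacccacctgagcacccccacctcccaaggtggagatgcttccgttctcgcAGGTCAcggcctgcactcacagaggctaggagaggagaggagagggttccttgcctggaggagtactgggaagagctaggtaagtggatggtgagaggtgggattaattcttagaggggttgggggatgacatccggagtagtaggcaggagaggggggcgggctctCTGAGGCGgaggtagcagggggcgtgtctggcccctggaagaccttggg
Hoxb4, chr11:96318017-96318316, plus strand: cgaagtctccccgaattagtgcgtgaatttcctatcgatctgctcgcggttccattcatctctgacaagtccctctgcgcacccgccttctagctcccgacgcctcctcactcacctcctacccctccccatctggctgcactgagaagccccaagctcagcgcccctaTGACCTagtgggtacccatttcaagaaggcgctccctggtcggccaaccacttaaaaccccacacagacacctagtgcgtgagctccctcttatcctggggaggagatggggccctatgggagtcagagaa
Kirrel2, chr7:30457466-30457765, minus strand: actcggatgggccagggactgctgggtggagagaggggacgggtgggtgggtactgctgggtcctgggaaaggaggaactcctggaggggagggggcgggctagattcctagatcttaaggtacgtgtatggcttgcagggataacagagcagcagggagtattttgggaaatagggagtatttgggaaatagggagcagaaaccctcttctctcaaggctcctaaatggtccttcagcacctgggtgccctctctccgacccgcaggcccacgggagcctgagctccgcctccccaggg
The Oas3 and Stox1 windows hold the same 3 items in the same order: AGGTCA, then GGGTCA, then CNCCTCAG closer to the start. Counted from the start, they begin at positions -244, -175 and -30 in Oas3 and at -202, -172 and -40 in Stox1. How many of all windows hold these items in this order was not counted, so the shared order is a description of windows chosen for their letters. Hpca holds a hexamer at -166 and CNCCTCAG at 2. Efcc1 and Hoxb4 hold hexamers and no CNCCTCAG, and the Kirrel2 window holds neither.

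Of the 42 members, 31 had a promoter window under their symbol, with 46 windows in all because some genes have several starts. CNCCTCAG was found in a window of 7 of the 31 members (22.6%), against 11% of 9080 protein-coding genes with a mean WT level of at least 6 at 8 h of RA and 13.5% of 89 genes induced in WT and not transient. By window the shares were 10 of 46 (21.7%) for members and 7.94% of all 32851 windows, and overlapping windows of Dedd share a match. The hexamer was found in 14 of 31 members (45.2%), against 27.6% of the expressed protein-coding genes and 55.1% of the genes induced in WT and not transient. Direct repeats of the hexamer spaced by 1, 2 or 5 bases, the textbook RAR arrangements, were in 0 of the 46 windows and in 0.128%, 0.04% and 0.03% of all windows. These shares describe letters in short windows and say nothing of binding.

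Stra8 itself was measured in every library. At 24 h its level was between 9.47 and 9.79 log2 in the KO libraries under RA and between 14.1 and 14.73 in the WT libraries under RA. Transcript was thus still counted in KO and rose there with RA, by 3.08 ± 0.60 log2 at 24 h (SE, adjusted p = 0.000602). Which part of the gene the KO allele lacks is not given in the sources used here. The RA response itself was present in KO: Cyp26a1, the main RA hydroxylase, was higher under RA than DMSO by 3.57 ± 0.44 log2 at 24 h and by 3.72 ± 0.44 at 8 h (SE; adjusted p = 2.12e-06 and 1.5e-06). Markers of germ cells were detected in all, 11 of 11, with summed levels of 16.66 to 16.69 log2 in KO under RA at 24 h and 16.57 to 16.67 under DMSO. Of the 30 markers of feeder fibroblasts, 29 were measured, so the cultures hold fibroblast RNA. A set of 3 libraries, all of DMSO at 4 h, stood apart: the authors' column names mark WT25 as an outlier and say of KO20 that it follows the RA-treated KO libraries of 24 h, and WT23 had a high Stra8 level of 11.59. Over the 42 members the KO20 library at DMSO 4 h differed from KO20 at RA 24 h by a median of 0.003 log2, and it lay 0.781 above the mean of KO12 and KO21 at DMSO 4 h. Over 7807 genes the differences between these KO20 libraries had an SD of 0.04 log2, the smallest of 861 library pairs. The next pair had 0.0997. Whether a sample or column was exchanged or repeated was not tested. These 3 libraries enter the comparisons at 4 h directly and all others through the shared estimate of the spread, and counts without them are given where they move a result.

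In WT, the members had a median RA difference of 0.18 log2 at 24 h and 0.65 at 8 h, so that a median of 28.2% of the 8 h difference was kept. The share kept ran from -37.6% to 49.4%, and 8 members were below DMSO at 24 h. By line, the median over the members at 4, 8 and 24 h was 0.77, 0.65 and 0.08 log2 in WT17, 0.65, 0.67 and 0.23 in WT23, and 0.77, 0.69 and 0.14 in WT25. At 4 h, a time the rule did not use, the median of each WT line was thus close to that at 8 h, although the values of WT23 and WT25 at 4 h rest on DMSO libraries in doubt. In KO the same medians at 4, 8 and 24 h were 0.79, 0.92 and 0.78 log2 in KO12, 0.09, 0.85 and 0.95 in KO20, and 0.71, 0.93 and 0.92 in KO21. The low value at 4 h in KO20 rests on the DMSO library in doubt. Medians over all 16297 genes tested lay between -0.03 and 0.01 in all lines and times.

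**Figure D1:**
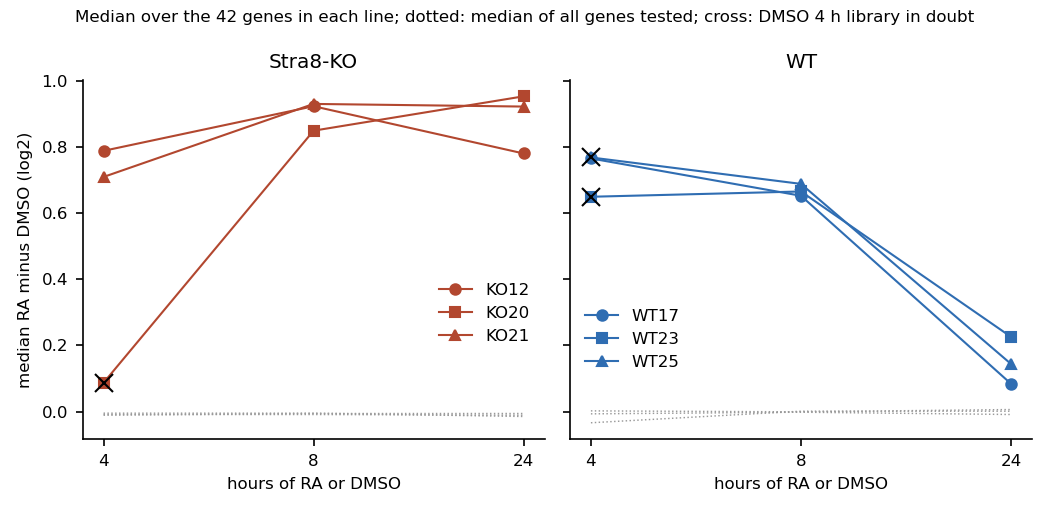
Median difference between RA and DMSO (log2) over the 42 genes at 4, 8 and 24 h, one curve per line, KO on the left and WT on the right; dotted curves are the medians of all genes tested and black crosses mark the 4 h values that use a DMSO library in doubt. The KO lines sit at 0.78 to 0.95 at 24 h and the WT lines, whose values at 8 h and 24 h chose the genes, at 0.08 to 0.23.

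KO cultures kept the induction of most of these genes at 24 h. Under RA, 33 of the 42 members were higher than under DMSO at 24 h and 0 were lower, whereas 6.36% of all 16297 genes tested were higher and 2.47% lower (limma, Benjamini-Hochberg adjusted p under 0.05 over all genes tested). At 8 h, 38 were higher and 0 lower, against 2.9% of all genes higher. The members' median difference in KO was 0.91 log2 at 24 h and 0.90 at 8 h, and the median share of the 8 h difference kept at 24 h was 98.25%, with a range of -14.1% to 188%. Of the 42, 19 kept at least 100% as rounded, 16 kept between 50% and 100%, and 7 kept at most 50%. Among the 19, Dhrs3 reached 100% only by rounding (0.9046 log2 at 24 h and 0.905 at 8 h). The 35 that kept more than 50% are 83.3% of the members. The same share was 91.9% among the 393 genes that meet the 8 h conditions in KO and 97.5% among the 122 genes that were induced and not transient in WT. Most RA-induced genes of KO thus kept more than 50%, members or not, and the shares were not tested against each other.

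Line by line, RA exceeded DMSO at 24 h in 41, 41 and 40 of the 42 members in KO12, KO20 and KO21, and in 25, 35 and 30 in WT17, WT23 and WT25. The WT counts rest on values the rule used, and shares of all genes by single line are not given. Every KO library under RA lay above every KO library under DMSO for 35 members at 24 h and 40 at 8 h, against 18.1% and 10.3% of all genes tested. RA exceeded DMSO in all 3 KO lines for 39 members at 24 h, against 30% of all genes. In WT, every RA library lay above every DMSO library for 16 members at 24 h (22.8% of all genes), and RA exceeded DMSO in all 3 lines at 8 h for 42 by choice (26.2% of all genes). The 24 h difference was larger in KO than in WT for 40 of 42 members (50% of all genes tested), with a median excess of 0.8 log2. The 8 h difference was larger in KO for 40 of 42 (53.6% of all genes tested), with a median excess of 0.21. Both comparisons contain the WT values that chose the members and are therefore a description. Among the 122 genes induced in WT and not transient, the KO difference was the larger one for 88 (72.1%) at 24 h and for 100 (82%) at 8 h, and their medians were 1.17 log2 in KO and 0.84 in WT at 24 h.

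**Figure D2:**
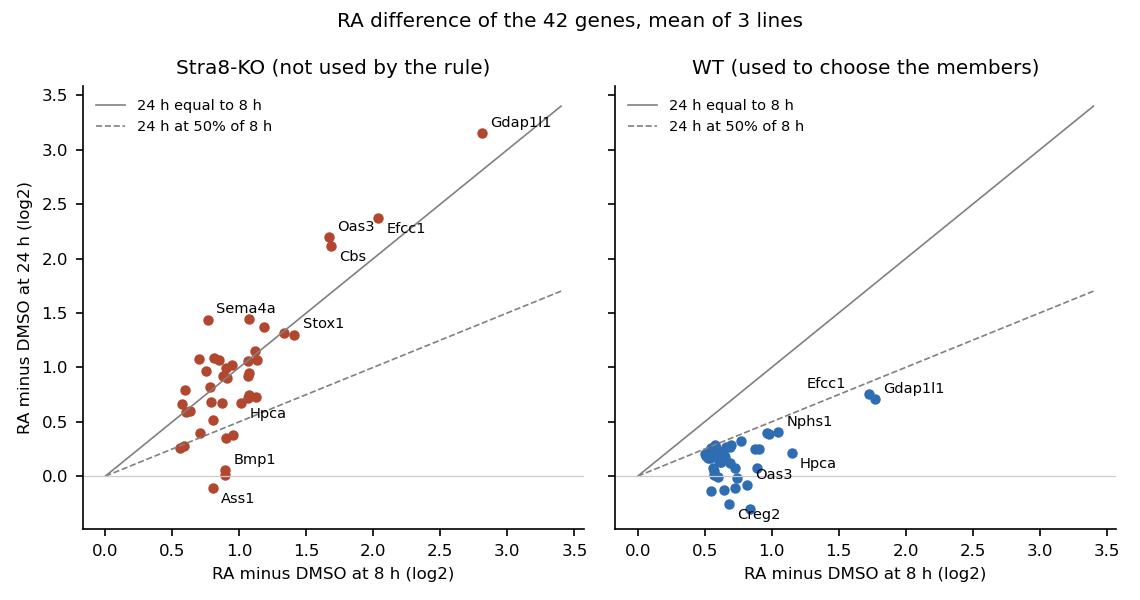
Mean difference between RA and DMSO (log2, 3 lines) at 24 h on the vertical axis against 8 h on the horizontal axis, 1 point per gene, KO on the left and WT on the right; the solid line marks equal differences and the dashed line 50%. All 42 WT points lie under the dashed line because they were chosen so, whereas 35 KO points lie above it and 7 on or under it.

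The 4 genes that follow had the largest differences in KO at 24 h. Gdap1l1 (ENSMUSG00000017943.15, chr2:163438476-163455324, plus strand) encodes a relative of the mitochondrial fission protein GDAP1 and is best known from neurons. At 24 h it stood at 7.51, 7.72 and 7.50 log2 in KO12, KO20 and KO21 under RA, against 4.37, 4.62 and 4.29 under DMSO. In WT17, WT23 and WT25 the values were 5.27, 5.17 and 5.15 under RA and 4.64, 4.36 and 4.46 under DMSO. The RA libraries were higher than the DMSO libraries without overlap in both genotypes. The KO difference was 3.15 ± 0.41 log2 at 24 h (SE, n = 3 lines per group), 8.88-fold, with adjusted p = 3.4e-06 in limma. At 4 h of RA the levels were 6.61, 6.80 and 6.33 in KO12, KO20 and KO21 and 6.61, 6.20 and 6.52 in WT17, WT23 and WT25. At 8 h they were 6.83, 7.24 and 7.45 in the KO lines and 6.16, 6.16 and 6.71 in the WT lines. The genotypes thus overlapped under RA at 4 h and stood apart at 24 h, where the WT values are among those that chose the gene.

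Efcc1 (chr6:87730869-87755908, plus strand), an EF-hand and coiled-coil protein without a role stated here, stood at 7.93, 8.02 and 8.13 log2 in the KO lines under RA at 24 h, against 5.74, 5.82 and 5.41 under DMSO. In the WT lines it stood at 6.57, 6.0 and 6.23 under RA and 5.68, 5.19 and 5.67 under DMSO. RA lay above DMSO in both genotypes, by 2.37 ± 0.30 log2 in KO (5.17-fold, adjusted p = 2.32e-06) and by a mean of 0.75 in WT. Its KO level under RA was nearly flat over time, between 7.89 and 7.99 at 4 h, 7.94 and 8.08 at 8 h and 7.93 and 8.13 at 24 h.

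Oas3 (ENSMUSG00000032661.9, chr5:120753098-120777661, minus strand) belongs to the family of antiviral synthases that make 2′-5′ oligoadenylate. In KO12, KO20 and KO21 it stood at 9.28, 9.19 and 8.71 log2 under RA at 24 h, against 7.12, 6.79 and 6.68 under DMSO. In WT17, WT23 and WT25 it stood at 6.80, 6.63 and 6.85 under RA and 6.97, 6.63 and 6.94 under DMSO. The KO groups did not overlap, whereas in WT the RA values were at or below those of DMSO. The KO difference was 2.20 ± 0.35 log2 at 24 h and 1.67 ± 0.35 at 8 h (SE; adjusted p = 5.45e-05 and 0.00326). Fitted on the KO groups alone, the 8 h call was lost (adjusted p = 0.0651). Oasl2, a related gene, missed the 8 h condition narrowly, with a WT difference of 0.48.

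Cbs, cystathionine beta-synthase, which joins homocysteine and serine on the way to cysteine, stood at 7.85, 7.91 and 7.58 log2 under RA at 24 h in KO12, KO20 and KO21, against 5.85, 5.53 and 5.62 under DMSO. In the WT lines the values were 5.79, 5.71 and 5.83 under RA and 5.56, 5.54 and 5.44 under DMSO. The KO difference of 2.11 ± 0.31 log2 (4.33-fold, adjusted p = 1.56e-05) followed 1.68 ± 0.31 at 8 h (adjusted p = 0.000666), whereas WT had shown a mean difference of 0.26 at 24 h and 0.55 at 8 h. Cbs was among the 4 members that were higher at 24 h of RA than at 8 h of RA in KO when the 3 doubtful libraries were left out (0.70 ± 0.16 log2, adjusted p = 0.00207). In that fit 10.6% of all genes tested were higher.

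**Figure D3:**
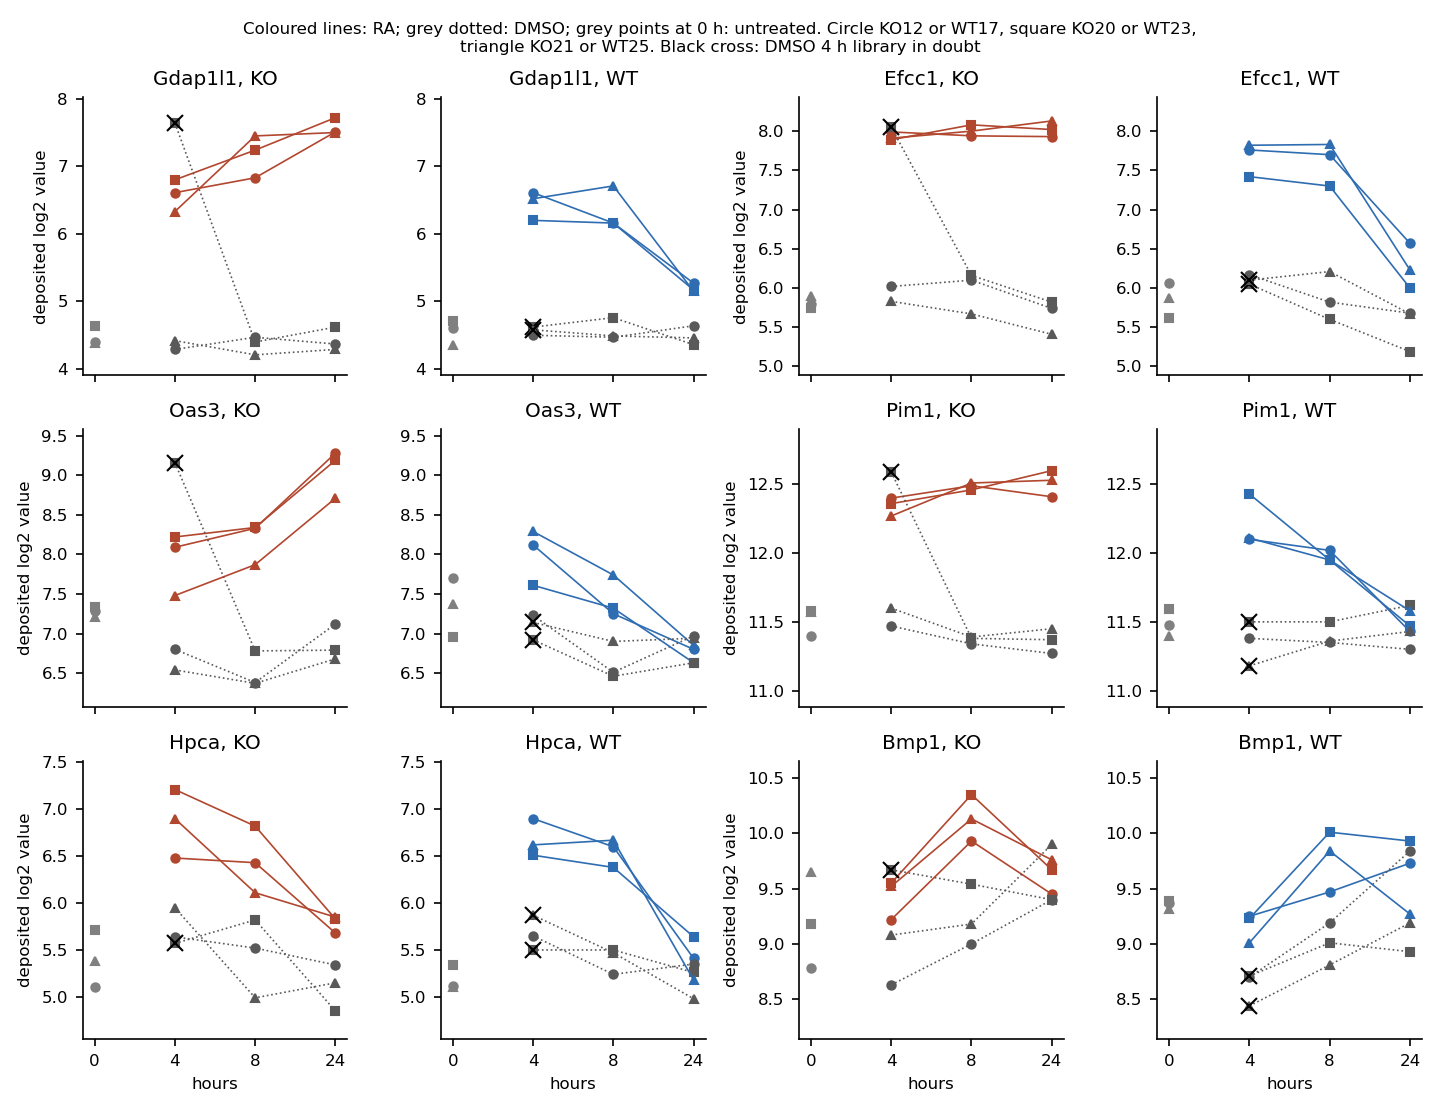
Deposited log2 values of 6 genes in every library at 0, 4, 8 and 24 h, KO panels left of WT panels; coloured curves are RA, grey dotted curves DMSO, grey points untreated cultures, and black crosses the DMSO 4 h libraries in doubt. Gdap1l1, Efcc1, Oas3 and Pim1 are high under RA in KO at 24 h and lower in WT, Hpca is lower at 24 h than at 8 h in both, and Bmp1 ends within the range of DMSO in KO.

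A pair of members belongs to the retinoid and homeobox lists. Dhrs3, which reduces retinal and so limits RA synthesis, stood at 8.82, 8.91 and 9.22 log2 under RA at 24 h in the KO lines, against 8.13, 7.93 and 8.18 under DMSO. In the WT lines it stood at 8.07, 8.31 and 8.04 under RA and 8.15, 7.89 and 8.17 under DMSO. The KO difference was 0.91 ± 0.16 log2 at both 24 h and 8 h (SE; adjusted p = 0.000134 and 0.00028), and 2 of the 3 WT lines were below DMSO by 24 h. Of the 34 genes tested from the list on RA signalling and metabolism, 12 were higher and 1 lower under RA in KO at 24 h, and 13 were higher and 0 lower at 8 h; Dhrs3 was the one member among them. Bco1, which cleaves carotenoids to retinal, was among the higher ones with 2.16 ± 0.31 log2 at 24 h.

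Hoxb4, a homeobox factor of the Hoxb cluster, a cluster known to respond to RA from its 3′ end, stood at 7.22, 6.99 and 7.30 log2 under RA at 24 h in the KO lines, against 6.23, 6.04 and 6.04 under DMSO. In the WT lines it stood at 5.77, 5.89 and 5.38 under RA and 5.45, 5.64 and 5.21 under DMSO. The KO difference was 1.07 ± 0.21 log2 at 24 h and 1.13 ± 0.21 at 8 h (SE; adjusted p = 0.000863 and 0.000912). Untreated Hoxb4 also lay higher in KO, at 5.83 to 6.38 log2, against 5.20 to 5.67 in WT, although this difference of 0.63 ± 0.21 did not pass the test (adjusted p = 1). Of 18 Hox genes tested, 5 were higher and 0 lower in KO at 24 h, Hoxb1 among them with 1.44 ± 0.19, and 4 were higher at 8 h.

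Pim1, a serine/threonine kinase induced by cytokine and JAK-STAT signals that favours survival, stood at 12.41, 12.60 and 12.53 log2 under RA at 24 h in the KO lines, against 11.27, 11.37 and 11.45 under DMSO. In the WT lines it stood at 11.43, 11.47 and 11.58 under RA and 11.30, 11.62 and 11.43 under DMSO. The KO groups stood apart by 1.15 ± 0.15 log2 (2.22-fold, adjusted p = 2.85e-06), while the WT groups overlapped. Of the 22 genes of cytokine and JAK-STAT feedback tested, 2 were higher and 2 lower in KO at 24 h, so the list as a whole did not share the course of Pim1. Tnfrsf25, a death-domain receptor of the TNF receptor family, differed by 1.08 ± 0.15 log2 in KO at 24 h (adjusted p = 9.61e-06), and by means of -0.11 in WT at 24 h and 0.73 in WT at 8 h.

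Sema4a, a membrane semaphorin known from axon guidance and immune cells, had the highest share kept in KO, 188%. It stood at 6.93, 7.36 and 7.15 log2 under RA at 24 h in the KO lines, against 5.77, 5.78 and 5.59 under DMSO, a difference of 1.44 ± 0.31 (adjusted p = 0.00231; 0.0526 without KO21, so that the call was lost). At 8 h the difference was 0.77 ± 0.31 and did not pass the test (adjusted p = 0.284). KO20 lay high in both arms, at 7.48 under RA and 6.87 under DMSO, and the test was passed with line as a block (adjusted p = 0.0129) and without KO20 (adjusted p = 0.00803). Ngfr, the low-affinity neurotrophin receptor, and Rgs3, which speeds the switching off of G proteins, were called at 24 h (0.82 ± 0.23 and 0.79 ± 0.19; adjusted p = 0.0204 and 0.00553). Neither was called at 8 h (adjusted p = 0.0588 and 0.0864), whereas both passed there with the block (adjusted p = 9.12e-05 and 0.0345) and without the 3 doubtful libraries (adjusted p = 0.0308 and 0.00181). At 24 h both calls were lost without KO21 (adjusted p = 0.17 and 0.0784).

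Spred2 took another course. It encodes an inhibitor of RAS and ERK signalling, a brake on growth factor input such as that of GDNF and FGF2. At 24 h it stood at 11.44, 11.51 and 11.62 log2 under RA in the KO lines, against 11.20, 11.04 and 11.13 under DMSO; in the WT lines it stood at 10.88, 10.98 and 11 under RA and 10.90, 10.88 and 11.04 under DMSO. The KO difference was 0.40 ± 0.09 log2 at 24 h and 0.71 ± 0.09 at 8 h (SE; adjusted p = 0.00305 and 2.74e-06), so that 55.8% was kept in KO, and a mean of 2.2% in WT. Without KO21 or without KO20 the 24 h call was lost (adjusted p = 0.11 and 0.073). Its RA level in KO fell by 0.42 log2 between 8 h and 24 h (adjusted p = 0.00501), a call lost without KO12 or without KO20 (adjusted p = 0.121 and 0.059). Of 35 genes of GDNF and FGF signalling tested, 4 were higher and 4 lower in KO at 24 h.

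Nphs1 and Kirrel2 are neighbours on chromosome 7 that point away from each other, with 624 bases between them in the deposited coordinates. They encode nephrin (chr7:30458315-30487223, plus strand) and a nephrin-like adhesion protein (chr7:30447534-30457690, minus strand), both known from the slit diaphragm of the kidney. Nphs1 stood at 9.87, 9.77 and 9.72 log2 under RA at 24 h in the KO lines, against 8.55, 8.26 and 8.45 under DMSO, and at 8.86, 8.71 and 8.58 under RA in the WT lines, against 8.40, 8.29 and 8.24 under DMSO. Kirrel2 stood at 10.03, 9.84 and 10.07 log2 under RA in the KO lines, against 9.30, 8.70 and 9.18 under DMSO, and at 8.97, 9.11 and 8.78 under RA in the WT lines, against 8.97, 8.96 and 8.70 under DMSO. In KO both pairs of groups were apart, by 1.37 ± 0.15 log2 for Nphs1 and 0.92 ± 0.12 for Kirrel2 (SE; adjusted p = 5.49e-07 and 3.93e-06). In WT a mean of 38.5% of the 8 h difference was kept for Nphs1 and 8.4% for Kirrel2. An antisense gene, Nphs1os, overlaps Nphs1 at a lower level, and the strand setting of the counting is not given in the sources used here.

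Among genes known from neurons, Hpca, the calcium sensor hippocalcin, stood at 5.68, 5.83 and 5.85 log2 under RA at 24 h in the KO lines, against 5.34, 4.85 and 5.15 under DMSO. It was at 5.41, 5.64 and 5.18 under RA in the WT lines, against 5.35, 5.26 and 4.98 under DMSO. The KO difference of 0.67 ± 0.20 log2 passed the test (adjusted p = 0.0273) but lost its call under several other settings, with adjusted p = 0.0547 after quantile normalization and 0.165 without KO20. The RA level of Hpca in KO fell by 0.67 log2 between 8 h and 24 h (adjusted p = 0.0346), a call lost when any 1 KO line was left out (adjusted p of 0.0579 to 0.185). Creg2, a secreted glycoprotein of the brain, differed by 0.95 ± 0.15 in KO at 24 h (adjusted p = 2.78e-05), whereas its WT mean was below DMSO, at -0.26, the lowest share kept in WT, -37.6%. Myrip, a linker of secretory vesicles to myosin, differed by 0.97 ± 0.15 in KO at 24 h.

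Stox1, a winged-helix DNA-binding protein, stood at 8.70, 9.08 and 8.86 log2 under RA at 24 h in the KO lines, against 7.56, 7.6 and 7.58 under DMSO, a difference of 1.30 ± 0.17 (adjusted p = 3.4e-06). In the WT lines it was still above DMSO, at 8.16, 8.16 and 8.15, against 7.86, 7.68 and 7.77. Extl1, an exostosin-like glycosyltransferase of heparan sulphate synthesis, differed by 1.31 ± 0.17 in KO (adjusted p = 2.57e-06) and by a mean of 0.39 in WT at 24 h. Lpo, the secreted antimicrobial enzyme lactoperoxidase, differed by 1.44 ± 0.24 in KO (adjusted p = 5.92e-05) and by a mean of 0.12 in WT. Unc93b1, which carries nucleic-acid-sensing Toll-like receptors to endosomes, differed by 0.74 ± 0.18 in KO at 24 h (adjusted p = 0.00469; 0.0961 without KO21) and kept 69.5%.

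Further members were higher under RA in KO at 24 h as well. Sept11, a septin of the filament-forming GTPases, differed in KO by 1.02 ± 0.16 log2 at 24 h, Slain2, a microtubule plus-end protein, by 0.99 ± 0.14, Lima1, an actin cross-linker, by 1.06 ± 0.20, and Bfsp1, an intermediate filament protein of the lens, by 0.92 ± 0.17. All 4 passed the test (adjusted p = 4.93e-05, 7.32e-06, 0.000514 and 0.000455) and kept at least 99.3% of the 8 h difference in KO. Lipe, hormone-sensitive lipase, differed by 0.67 ± 0.10 log2, Dedd, a death-effector-domain protein, by 0.68 ± 0.10, Tm7sf3, a membrane protein, by 0.60 ± 0.11, and Ccdc13, a centrosomal coiled-coil protein, by 0.59 ± 0.17. These 4 passed as well, and the 2 members that are RIKEN clones without a gene name were also higher in KO at 24 h. The calls of Ccdc13 and of 1 RIKEN clone were lost without KO21 (adjusted p = 0.166 and 0.123). The genes of Dedd and Tm7sf3 each overlap another protein-coding gene, Nit1 and Med21, on the opposite strand.

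**Figure D4:**
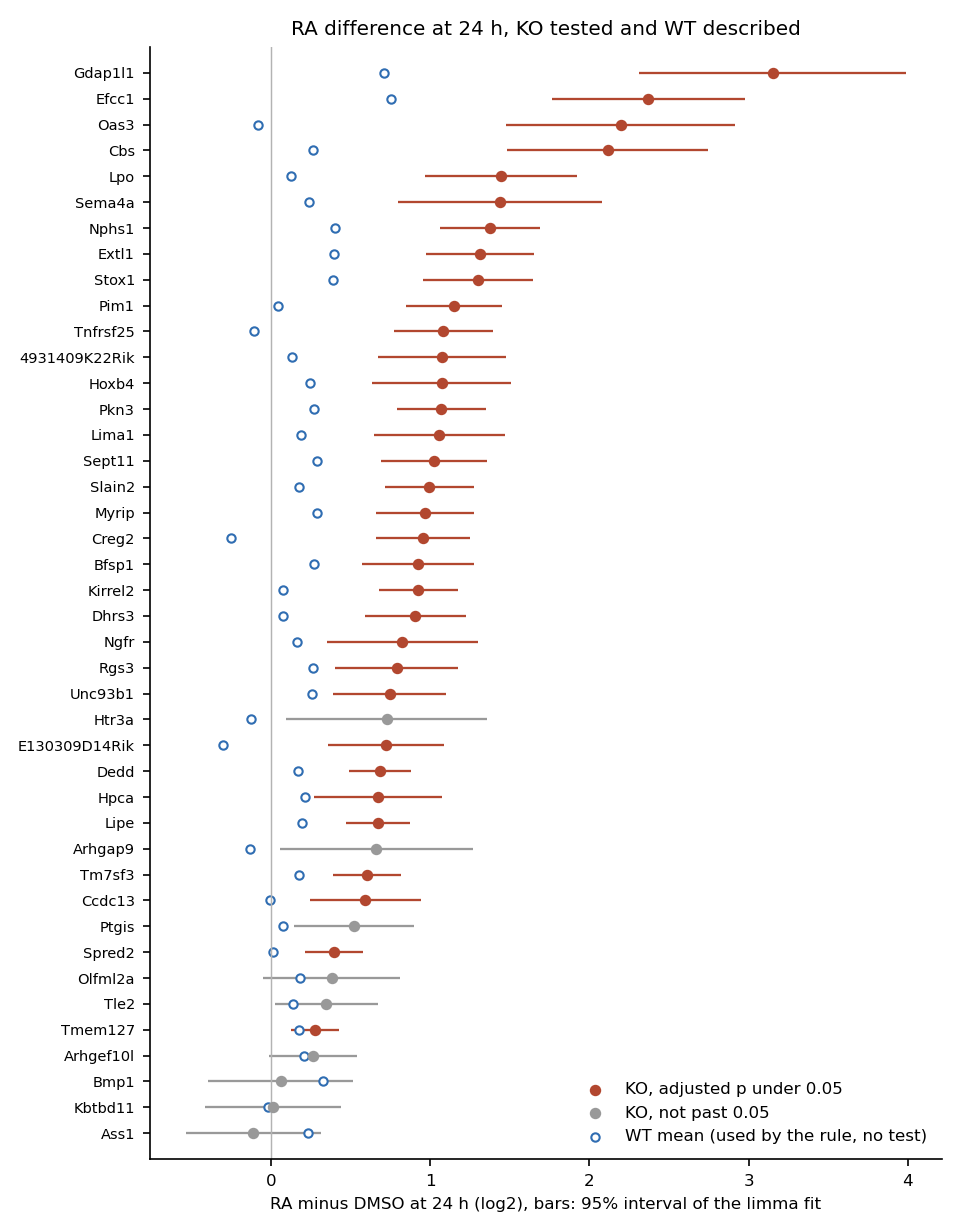
Difference between RA and DMSO at 24 h (log2) for the 42 genes in KO, with 95% intervals of the limma fit, red where the adjusted p was under 0.05 and grey where it was not; open blue circles are the WT means, which the rule used. The KO estimates run from -0.11 for Ass1 to 3.15 for Gdap1l1, and 33 of 42 are red.

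Of the 42 members, 9 were not called in KO at 24 h. For Htr3a, a serotonin-gated channel subunit, Arhgap9, a GTPase-activating protein, and Ptgis, prostacyclin synthase, the differences were 0.73 ± 0.31, 0.66 ± 0.30 and 0.52 ± 0.19 log2 (adjusted p = 0.16, 0.19 and 0.0756). With line as a block they passed (adjusted p = 0.00216, 0.0293 and 0.0262), and Ptgis also without the 3 doubtful libraries (adjusted p = 0.0319). RA lay above DMSO in all 3 KO lines for each: Arhgap9, whose gene overlaps Gli1 on the opposite strand, stood at 6.98, 7.44 and 7.76 under RA, against 6.48, 6.63 and 7.10 under DMSO. For Tle2, a Groucho-type corepressor, Olfml2a, an extracellular olfactomedin-like protein, and Arhgef10l, a guanine nucleotide exchange factor, the estimates were 0.35 ± 0.16, 0.38 ± 0.21 and 0.26 ± 0.14 (adjusted p = 0.199, 0.313 and 0.264), with 38.5%, 39.8% and 46.8% of the 8 h difference kept.

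RA and DMSO overlapped at 24 h in KO for 7 of the 9, all but Ptgis and Olfml2a. Bmp1, Ass1 and Kbtbd11 had the lowest shares kept. Bmp1, a protease that trims procollagen, stood at 9.45, 9.67 and 9.76 log2 under RA at 24 h in KO12, KO20 and KO21, against 9.40, 9.40 and 9.90 under DMSO. At 8 h it had stood at 9.93, 10.35 and 10.13 under RA, against 9.0, 9.54 and 9.18 under DMSO. The groups overlapped at 24 h (0.06 ± 0.23, adjusted p = 0.925, 95% interval -0.40 to 0.52) and were apart at 8 h (0.90 ± 0.23, adjusted p = 0.0158), although the 8 h call was lost without KO21 (adjusted p = 0.18) and under some other settings. Ass1, argininosuccinate synthase of the urea cycle, stood at 7.08, 7.11 and 7.08 under RA at 24 h in KO, against 6.92, 7.22 and 7.47 under DMSO, and differed by -0.11 ± 0.21 (adjusted p = 0.823), after 0.80 ± 0.21 at 8 h (adjusted p = 0.0218; 0.0743 to 0.239 when any 1 KO line was left out). Kbtbd11, called at 8 h (adjusted p = 0.00869), lost that call in the same way (0.0527 to 0.134).

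Kbtbd11 is a BTB and Kelch repeat protein. In KO it stood at 9.71, 9.43 and 9.38 log2 under RA at 24 h and at 9.6, 9.36 and 9.41 under RA at 8 h, whereas DMSO stood at 9.83, 9.42 and 9.26 at 24 h and at 8.60, 8.54 and 8.55 at 8 h. The RA level held while DMSO rose by 0.94 ± 0.21 log2 (adjusted p = 0.0143, in 3 of 3 KO lines), the one member called in that comparison, where 1.09% of all genes tested were higher. The call was lost without a filter on low values (adjusted p = 0.0646) and when any 1 KO line was left out (adjusted p of 0.0951 to 0.247). The DMSO level was also higher at 24 h than at 8 h for Ass1 and Bmp1 in KO, by 0.47 and 0.33 log2, without a call, while their RA level was lower by 0.45 and 0.51. In WT the mean DMSO level of Kbtbd11 was 1.1 log2 higher at 24 h than at 8 h as well. Untreated, Kbtbd11 stood at 9.53, 9.2 and 9.26 log2 in KO12, KO20 and KO21. Its DMSO level in KO thus lay below the untreated level at 8 h and near it at 24 h. The KO level under RA lay near the untreated one at both times. In WT17, WT23 and WT25 it stood at 8.52, 9.01 and 9.36 untreated, against 8.82, 8.97 and 9.3 under RA at 8 h. The smaller difference between RA and DMSO at 24 h thus goes with a control level higher than at 8 h in Kbtbd11. In Ass1 and Bmp1 it goes with both a control level higher than at 8 h and a lower RA level.

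Feeder fibroblast markers stood lower, as a sum, under RA than under DMSO in KO at 24 h. Their summed level was 15.68 to 15.87 log2 in KO under RA at 24 h, against 16.06 to 16.51 under DMSO, without overlap, and 15.56 to 16.26 under RA at 8 h, against 15.48 to 16.16 under DMSO. Of the 29 markers measured, 3 were lower under RA at 24 h (Col1a1, Col6a2 and Col6a3) and 0 higher, with a median of -0.38 log2. Among all genes tested, 2.47% were lower and 6.36% higher. At 8 h 0 markers were called, against 0.313% of all genes lower and 2.9% higher. Olfml2a still lay above DMSO in KO at 24 h, at 7.57, 7.41 and 7.57 log2 under RA, against 7.27, 6.91 and 7.22. The part of the feeder RNA in the values of Bmp1, Ass1, Kbtbd11, Olfml2a, Tle2 and Arhgef10l was not tested. In WT the summed feeder level overlapped between RA and DMSO, at 15.55 to 16.21 and 15.68 to 16.37 at 24 h, while macrophage markers, 5 of 9 measured, stood at 7.53 to 7.80 under RA at 24 h in WT and at 8.59 to 9.0 under DMSO. Other marker lists stood apart in WT at 24 h as well: germ cells, 11 of 11, at 16.46 to 16.6 under RA and 16.62 to 16.73 under DMSO, endothelium, 6 of 8, at 9.14 to 9.22 and 9.42 to 9.87, Leydig cells, 4 of 7, at 8.84 to 9.02 and 8.69 to 8.74, and spermatids, 4 of 10, at 6.74 to 6.84 and 6.6 to 6.64. In KO the summed levels of spermatid markers stood apart at 24 h (7.01 to 7.05 under RA, 6.58 to 6.76 under DMSO) and those of germ cells at 8 h (16.59 to 16.63 under RA, 16.54 to 16.58 under DMSO). The part of these lists was not tested either. A sum mostly follows its most abundant markers, such as Mrc1 and Cd68 for macrophages (median 8.22 and 7.07 log2) and Fdx1 and Star for Leydig cells (8.32 and 6.52). Csf1r and Adgre1 of macrophages, Cyp17a1, Insl3 and Lhcgr of Leydig cells, and Prm1, Prm2 and Tnp2 of spermatids did not pass the filter. These sums thus do not show that such cells were present. By gene, every WT library under RA lay above every one under DMSO at 24 h for 22.8% of all genes tested.

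The change between 8 h and 24 h can be read arm by arm. In KO under RA, the members' level at 24 h minus 8 h had a median of -0.10 log2, with 18 of 42 above 0, and 3 were called lower (Spred2, Hpca and Tmem127, a transmembrane tumour suppressor). None of the 3 was called without KO12 or without KO20, and Tmem127 was also lost without KO21 (adjusted p = 0.0772). Among all genes tested, 4.47% were higher and 2.83% lower. Without the 3 doubtful libraries, 4 were higher (Oas3, Cbs, Rgs3 and Tm7sf3) and 5 lower (Spred2, Hpca, Tmem127, Ptgis and Olfml2a). In that fit 10.6% of all genes were higher and 9.98% lower, so these counts are near the share over all genes. Under DMSO the KO median was -0.01, and in WT it was -0.55 under RA, with 1 member above 0, and 0.01 under DMSO. The lower WT difference at 24 h thus went with a lower RA level in 41 of 42 members, as a description of values the rule used.

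**Figure D5:**
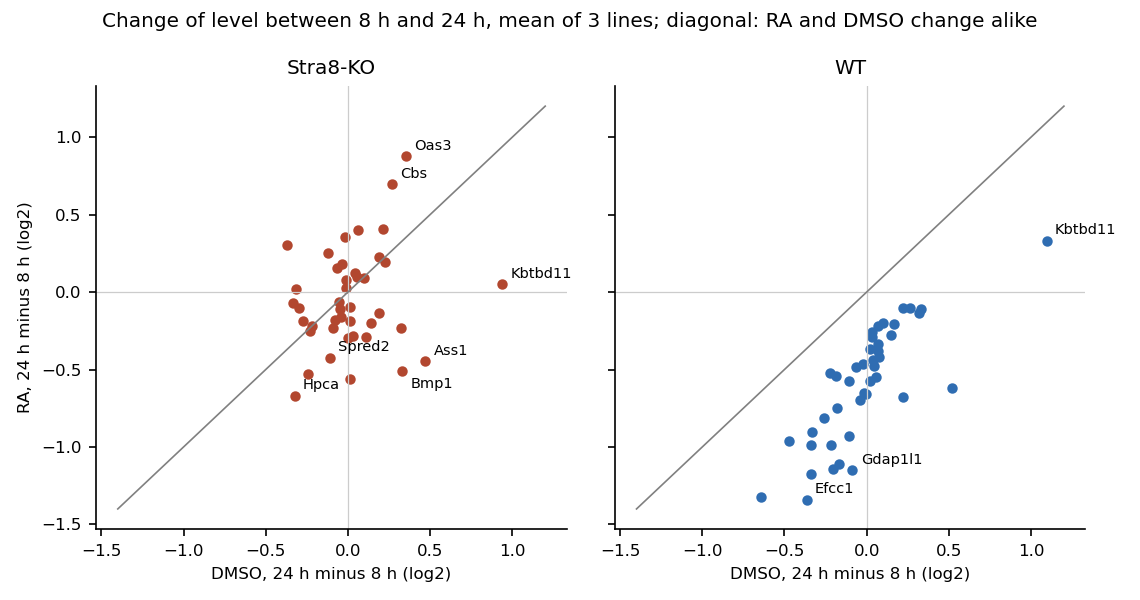
Change of level from 8 h to 24 h (log2, mean of 3 lines) under RA on the vertical axis and under DMSO on the horizontal axis, 1 point per gene, KO on the left and WT on the right; points on the diagonal changed alike under both. In WT all points lie under the diagonal because the rule asks for it, with a median of -0.55 under RA, whereas KO points scatter on both sides with a median of -0.10, and Kbtbd11 lies far to the right in both.

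The change of the RA difference itself, 24 h minus 8 h in KO, was called for 0 of 42 members in limma, and 0.00614% of all genes tested were called lower and 0% higher. At an unadjusted p under 0.05, 0 were higher and 6 lower: Ass1 (-0.92 ± 0.30), Kbtbd11 (-0.89 ± 0.30), Bmp1 (-0.84 ± 0.32), Tle2 (-0.55 ± 0.23), Tmem127 (-0.32 ± 0.11) and Spred2 (-0.31 ± 0.13), with adjusted p of 0.958 or 1. With the 3 doubtful libraries left out, 0 were called in either direction. The median was -0.02 log2. The width of the intervals allows sizeable changes: for Gdap1l1 the KO difference was 3.15 log2 at 24 h and 2.81 at 8 h, each with an SE of 0.41.

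The onset was early in both genotypes. At 4 h of RA, 28 of 42 members were higher than in untreated cultures in KO and 25 in WT, with 0 lower in each, against 4.81% and 5.3% of all genes higher. These comparisons use none of the values of the rule and none of the doubtful libraries directly. They also differ in solvent, handling and time in culture, which cannot be told apart from RA in them. The members' median was 0.79 log2 in KO and 0.73 in WT. Against DMSO at 4 h, 14 were higher in KO (0.454% of all genes) and 25 in WT (2.34%). Without the 3 doubtful libraries 31 were higher in KO (2.55% of all genes). In WT, WT17 is then the only DMSO library, so only the members' median difference of 0.69 log2 is given. Gdap1l1 shows the effect of KO20: its DMSO values at 4 h were 4.29 in KO12, 7.64 in KO20 and 4.42 in KO21, and its KO difference at 4 h was 1.13 ± 0.41 with all libraries (adjusted p = 0.388) and 2.23 ± 0.18 without the 3 (adjusted p = 1.05e-10).

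Before RA and early under RA the genotypes were compared directly. Untreated, 0 of 42 members were called between KO and WT in limma, and 0% of all genes were called. At an unadjusted p under 0.05, 3 members were higher in KO and 0 lower (Arhgef10l, Hoxb4 and Kirrel2). Stra8 itself was thus not called, although it stood at 6.31 to 6.49 log2 in untreated KO and 7.63 to 8.91 in untreated WT. The lack of calls therefore does not show equal starting levels. At 4 h of RA, 0 members were called (0.0552% of all genes were higher and 0.0368% lower), with 2 higher at an unadjusted p under 0.05 (Arhgef10l and Hoxb4). Without the 3 doubtful libraries the same 2 were higher in KO past the adjusted threshold (0.282% of all genes). Their difference under RA at 4 h was 0.57 ± 0.14 and 0.83 ± 0.21 log2, and in untreated cultures 0.46 ± 0.14 and 0.63 ± 0.21. The RA effect at 4 h in KO minus that in WT was called for 0 members, with a median of -0.22 log2 with all libraries and 0.07 without the 3, so that its sign rests on them.

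The cut-offs of the rule fall in a continuous range. Just inside the 8 h condition lay Arhgef10l, Lima1 and Dedd, with WT differences of 0.50, 0.51 and 0.52 log2, and just outside lay Izumo1r, Fam117a and Oasl2, with 0.50, 0.50 and 0.48, the first 2 under the limit before rounding. Just inside the condition on the share kept lay Myrip, Cbs and Rgs3, with 49.4%, 47.7% and 44.6%, and just outside Arhgef10, Sema4c and Pdgfrb, with 51.1%, 51.7% and 52.5%. Cbs, at 6.03, was the member nearest to the minimum level, and Col6a5, Tinagl1 and Sox2, at 5.88, 5.70 and 5.53, lay under it.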

How the data were processed

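RNA sequencing libraries of cultured mouse germ cells were used as processed values. Per the file headers and the values, the authors deposited log2 values scaled between libraries for 46983 genes, with a range of -4.5 to 18, in which genes with few reads lie near their own mean, which understates their changes. The deposited mean signal of each gene (scaled counts averaged over libraries) served for description only. Named by the submitters' processing notes are STAR 2.5.1b, DESeq and GRCm38.p4. No source used here gives the read counter or its strand setting, and 11 members overlap a tested gene on the opposite strand. Depth is unknown, so no counting interval is given. The labels list 43 samples in 14 groups, with 2 for WT17 at 24 h of RA, whereas a single column holds that condition, so 42 libraries were analysed.

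Tested were the 16297 genes, all 42 members among them, that reached log2 of 10 in 3 or more libraries. One mean per group was fitted over all libraries with limma 3.58.1 (trend and robust options) in R 4.3.3, with Benjamini-Hochberg adjustment over all genes tested and a threshold of 0.05 in 12 comparisons. Since the table holds log values, the planned count test was replaced by this one. Errors of differences are standard errors of this fit. Comparisons that share control libraries are not independent. Same-named lines deviated together, with median correlations over 7807 genes of 0.318 to 0.518 within a line and -0.298 to -0.11 between lines, and line as a fixed block was an alternative. Other alternatives were quantile normalization, no filter, no trend or robust option, 1 genotype alone, leaving out a line or the 3 doubtful libraries, and stricter member rules. The fit was tested on simulated data. The members and gene lists (RA signalling and metabolism, Hox genes, GDNF and FGF signalling, cytokine and JAK-STAT feedback, markers of germ cells, feeder fibroblasts and macrophages) were chosen with earlier results of these data known. Named were the 15 members with the largest WT difference at 8 h, the 10 with the largest KO difference at 24 h, list members and those nearest to a threshold; the remaining members, and genes outside the 42, were named after their values were seen.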

Additional observations from a re-analysis of the deposited data

How the results depend on the processing

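The counts of members higher under RA in KO, 33 at 24 h and 38 at 8 h, were within 1.5 times of these values under every alternative run. With line as a replicate block they were 36 and 41, and the block's changes of single calls stand beside the genes concerned. Without the 3 doubtful libraries they were 34 and 40, where 10.5% and 5.29% of all genes were higher. The share of all genes called moves with the setting as well. It is not given for the other settings, so their counts describe only how stable the calls were. Comparisons between genotypes could not be fitted with the block. Leaving out 1 line gave 24 to 33 at 24 h and 27 to 36 at 8 h. Under stricter member rules the share called higher at 24 h in KO was 91.7% (11 of 12, 8 h difference of at least 0.75), 85% (17 of 20, level of at least 8) and 70.6% (12 of 17, share kept of at most 25%), against 78.6% of the 42. Smaller counts moved more. For KO at 24 h of RA against 8 h of RA, the count higher, 0 in the main analysis, was 1 with the block. Without the 3 doubtful libraries it was 4 (10.6% of all genes). The count lower, 3, was 6 with the block, 5 without the 3 libraries (9.98% of all genes) and 0 to 3 without 1 line. For KO under DMSO at 24 h against 8 h, the count of 1 was 0 without a filter and 0 to 1 without 1 line. Without the 3 libraries it was 2 (3.3% of all genes). At 4 h the KO count of 14 was 31 without the 3 libraries (2.55% of all genes). It was 31 without WT25 and KO20 alone (chosen after seeing the data) and 4 to 26 without 1 line. The WT count of 25 at 4 h was 11 to 29 without 1 line, lowest without WT25. At 4 h of RA, 2 members were higher in KO than in WT without the 3 libraries (0.282% of all genes), against 0. No result past the threshold changed sign, whereas the uncalled 4 h differences of Cbs and Oas3 in KO turned negative without KO12 (-0.28 and -0.003 log2), and the median 4 h effect in KO minus WT was -0.22 log2 and 0.07 without the 3 libraries. Without KO21, 9 members lost the 24 h call: Sema4a, Spred2, Ngfr, Hpca, Rgs3, Tmem127, Ccdc13, Unc93b1 and a RIKEN clone. The causes were not tested. With 3 lines a group, the spread rests on few libraries.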

Other observations

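The same rule applied to KO in place of WT gave 32 transient genes of 393 induced at 8 h. They had median differences between RA and DMSO of 0.16 log2 at 24 h and 0.67 at 8 h in KO, values that chose them, and of 0.25 and 0.44 in WT. Of the 32, 16 kept more than 50% of the 8 h difference in WT. The 2 sets shared 7 genes, Bmp1, Kbtbd11, Olfml2a, Ass1, Tmem127, Tle2 and Arhgef10l, which are 16.7% of the WT set and 21.9% of the KO set. Among the KO set, Pdgfra, a growth factor receptor of fibroblasts and a feeder marker, differed by -0.04 log2 at 24 h and 0.55 at 8 h in KO, and by 0.43 at both times in WT. Fgf2 differed by 0.31 and 0.73 log2 in KO and by 1.06 and 0.33 in WT. These genes were named after their values were seen.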
